A study of Mus musculus with 50 samples.

Results

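Liver RNA of fetal mice was compared between dams given perfluorooctanoic acid (PFOA) at 1 mg/kg/day and dams given GenX at 2 mg/kg/day, with 5 fetal livers in each group. These 10 arrays, chosen by sample title, are 10 of 50 in the study, and 30746 named genes were read on each from the brightest probe of the gene. The mice were CD-1, an outbred stock, dosed by daily oral gavage from gestational day 1.5 to 17.5, and livers were taken on day 17.5. PFOA and GenX are both fluorinated surfactant acids. PFOA carries an unbranched carbon chain, whereas GenX, the dimer acid of hexafluoropropylene oxide, has a branched chain interrupted by an ether oxygen. The groups are called PFOA1 and GenX2 by their doses, which differed, so that compound and dose cannot be told apart in any difference between them.

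Fetuses of dams given 0 mg/kg/day (5 arrays, the control), PFOA at 5 mg/kg/day (PFOA5, 6 arrays) and GenX at 10 mg/kg/day (GenX10, 4 arrays) shared the fit and are given beside the results, as are maternal livers of PFOA1 and GenX2 dams (5 arrays each). The labels describe the fetal livers as female, drawn at random as 1 per litter, and as matched to maternal livers without naming the pairs.

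Both compounds are known to activate PPARα, a nuclear receptor that switches on genes of fatty acid oxidation in peroxisomes, mitochondria and the endoplasmic reticulum of hepatocytes. The fetal liver near birth holds maturing hepatocytes beside a large population of blood-forming, mostly erythroid, cells. Many enzymes of drug, amino acid and bile acid metabolism reach their adult levels in hepatocytes only around and after birth.

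Albumin (Alb) had a log2 signal of 13.28 ± 0.10 (SD, n = 5) in PFOA1 and 13.29 ± 0.04 in GenX2, and the fetal protein α-fetoprotein (Afp) 12.96 ± 0.06 and 12.93 ± 0.04. Correlations among the 25 fetal arrays lay between 0.9773 and 0.9967. In GenX2 replicate 5 the source name gives another group, GenX10, and in PFOA5 replicate 6 it gives GenX2, against titles and recorded characteristics. GenX2 replicate 2 and control replicate 3 had low Xist (4.50 and 5.39, against 10.52 to 11.48 on the other fetal arrays) and signal of Y-linked genes, against the label female. GenX2 replicate 4 stood farthest from the other fetal arrays of these groups on the first principal component, at 29.0 against -18.6 to 11.2. A value at or below the 95th percentile of the negative control probes of its array is called below background here, and 5174 to 6226 genes per array of PFOA1 and GenX2 lay above it.

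Between PFOA1 and GenX2, 239 of 30746 genes (0.777%) differed at a Benjamini-Hochberg adjusted p under 0.05 in limma, and these are the called genes. In PFOA1, 134 genes (0.436%) were higher, among them the cytochrome P450 Cyp2e1, the paraoxonase Pon1, the steroid reductase Akr1d1 and the P450 genes Cyp3a11 and Cyp2d9. In GenX2, 105 genes (0.342%) were higher, among them the transcript AU018091, the propionyl-CoA synthetase Acss3, the neural transcription factor gene Sox11 and the mitochondrial acyl-CoA thioesterase Acot2. Differences over 1 on the log2 scale were seen in 23 genes on the PFOA1 side, or 15 without near-identical copies of the 5S ribosomal RNA gene, and in 2 on the GenX2 side. Differences were above 0 in 64.4% of all genes and below 0 in 70.1% of the 5996 genes above background on at least 3 arrays of either group, so that dim and bright genes were tilted to opposite sides. At an unadjusted p under 0.05 there were 7057 genes, 15.7% of all genes higher in PFOA1 and 7.29% higher in GenX2. The groups did not overlap in 120 of the 134 genes (98 of 110 without the 5S copies) and 92 of the 105, against 3.74% of all genes. These genes were called by a test on the same arrays, so their separation follows largely from the choice. With every array centred on its median the split of the calls turned, to 99 higher in PFOA1 and 319 higher in GenX2.

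The called genes lay on different sides of the control. Of the 134 genes higher in PFOA1, 123 had a GenX2 level below the control by a 95% interval (10.7% of all genes did). The PFOA1 level lay below the control in 21 of the 134 (2.30% of all genes) and above it in 13 (5.48%). Their median difference from the control was -0.06 in PFOA1 and -0.54 in GenX2. Of the 105 genes higher in GenX2, 101 lay above the control in GenX2 (9.20% of all genes) and 29 in PFOA1 (5.48%), with medians of 0.42 and 0.06. The comparison of exposures and the comparisons with the control use the same PFOA1 and GenX2 arrays.

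The values of the leading genes are given below by array, in the order of replicates 1 to 5, as log2 signals. Cyp2e1, which oxidises ethanol, acetone and many small solvents, was read from a gene at chr7:140763819-140774990 (mm10, the build of the files, with the position from RefSeq on GRCm38.p6). Its signal in PFOA1 was 7.92, 8.15, 9.73, 8.53 and 9.51. In GenX2 it was 6.24, 6.29, 6.0, 5.47 and 5.78, below background on every array, and in the control 8.95, 8.50, 8.89, 9.14 and 9.12. Each GenX2 array lay below every PFOA1 and control array. The log2 difference was 2.81 ± 0.26 (SE, adjusted p = 3.5e-06), which with GenX2 at background gives a level at least 2.01-fold higher in PFOA1. PFOA1 lay -0.15 from the control (95% interval -0.69 to 0.39) and GenX2 -2.96 (-3.50 to -2.42).

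The gene with the next largest difference was Pon1 (chr6:5168090-5193987), whose product is secreted by hepatocytes, travels on high-density lipoprotein and hydrolyses lactones and organophosphates. PFOA1 arrays read 8.21, 8.16, 9.04, 7.41 and 8.76, and GenX2 arrays 6.27, 6.17, 6.41, 5.85 and 6.15. The control read 8.60, 9.50, 9.49, 8.49 and 8.97. GenX2 was again below background on all 5 arrays and below every other array, whereas PFOA1 overlapped the control and lay -0.69 from it (-1.21 to -0.17). The difference between exposures was 2.15 ± 0.25 (adjusted p = 8.2e-05), at least 1.47-fold.

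Genes of the Cyp2d family metabolise many drugs and steroids in mouse liver. Of 8 members measured, of which 4 were below background in both groups, 5 were called higher in PFOA1 (0.436% of all genes were), none was called higher in GenX2, and all 8 differences were above 0 (64.4% of all genes), with a median of 0.44 against 0.05 over all genes. The 8 genes are similar in sequence and lie near each other on chromosome 15, so signals of one member can reach the probes of another, and the family was chosen after its values were seen. To show how alike they can be, the 250 bases before the transcription start are given for Cyp2d9 (chr15:82452127-82452376, plus strand) and Cyp2d10 (chr15:82407195-82407444, minus strand), from RefSeq on GRCm38.p6, 5′ to 3′, with the longest stretch shared by both in capitals.
Cyp2d9: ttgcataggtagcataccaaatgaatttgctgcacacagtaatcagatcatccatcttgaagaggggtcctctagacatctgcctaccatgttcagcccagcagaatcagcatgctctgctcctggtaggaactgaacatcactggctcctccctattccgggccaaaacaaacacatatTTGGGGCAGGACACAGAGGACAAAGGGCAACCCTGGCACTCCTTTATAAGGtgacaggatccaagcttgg
Cyp2d10: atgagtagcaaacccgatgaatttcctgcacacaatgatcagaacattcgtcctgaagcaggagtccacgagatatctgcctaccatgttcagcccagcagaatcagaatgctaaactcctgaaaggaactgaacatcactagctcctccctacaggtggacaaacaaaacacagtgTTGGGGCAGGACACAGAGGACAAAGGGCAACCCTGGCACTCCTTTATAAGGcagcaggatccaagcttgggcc
The shared stretch runs over 51 bases, from -70 to -20 relative to the start of Cyp2d9 and from -73 to -23 relative to that of Cyp2d10, and 209 of 254 aligned positions (82.3%) were identical over the whole window. It holds TATAAA on the opposite strand.

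Cyp2d9 read 8.84, 8.21, 9.10, 8.41 and 8.85 in PFOA1 and 7.09, 7.50, 7.54, 7.25 and 7.61 in GenX2, where all arrays were below background. Cyp2d10 read 9.82, 9.55, 10.06, 9.56 and 9.86 in PFOA1 and 8.50, 8.72, 8.75, 8.57 and 8.85 in GenX2. Cyp2d26 read 11.03, 10.59, 11.26, 10.96 and 11.13 and 9.72, 9.82, 9.97, 9.79 and 10.36. In none of these 3 genes did the groups overlap. The differences were 1.28 ± 0.21 for Cyp2d9 (adjusted p = 0.0037, at least 1.89-fold), 1.09 ± 0.18 for Cyp2d10 (0.0032) and 1.06 ± 0.19 for Cyp2d26 (0.0064). Cyp2d12 and Cyp2d34 were called as well, at 0.44 and 0.44, but were below background on all arrays of both groups. Cyp2d22 had 0.20 ± 0.25 (adjusted p = 0.61).

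Cyp3a11, the main drug-inducible P450 of mouse liver and a target of the pregnane X receptor, differed in another way. PFOA1 arrays read 10.10, 9.40, 9.92, 9.54 and 9.71, GenX2 arrays 8.41, 8.43, 8.62, 8.44 and 8.15 and control arrays 8.45, 9.74, 9.22, 8.12 and 8.40. PFOA1 lay above GenX2 on every array and 0.95 above the control mean (0.38 to 1.52), while GenX2 fell within the range of the control (-0.37, -0.95 to 0.20). The difference was 1.32 ± 0.28 (adjusted p = 0.021), and without GenX2 replicate 5, PFOA1 replicate 3 or GenX2 replicate 4 it no longer passed. In the list of 22 measured targets of the receptors CAR and PXR, which also holds the receptor genes themselves, Cyp3a11 was the only 1 called. Over all genes 0.436% were called higher in PFOA1. Differences were above 0 in 18 of the 22 (64.4% of all genes), with a median of 0.17 against 0.05 over all genes. The 95% interval lay above 0 in 7 (15.7% of all genes), and the groups did not overlap in 5 (3.74%). Both groups were below background in 11 of the 22. Cyp3a25 (1.60 ± 0.48, adjusted p = 0.098) and Cyp3a16 (0.83 ± 0.20, 0.051) did not pass, and the CAR marker Cyp2b10 was below background on all arrays, at 0.09 ± 0.12. Probes of the Cyp3a genes can also share signal.

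**Figure D1:**
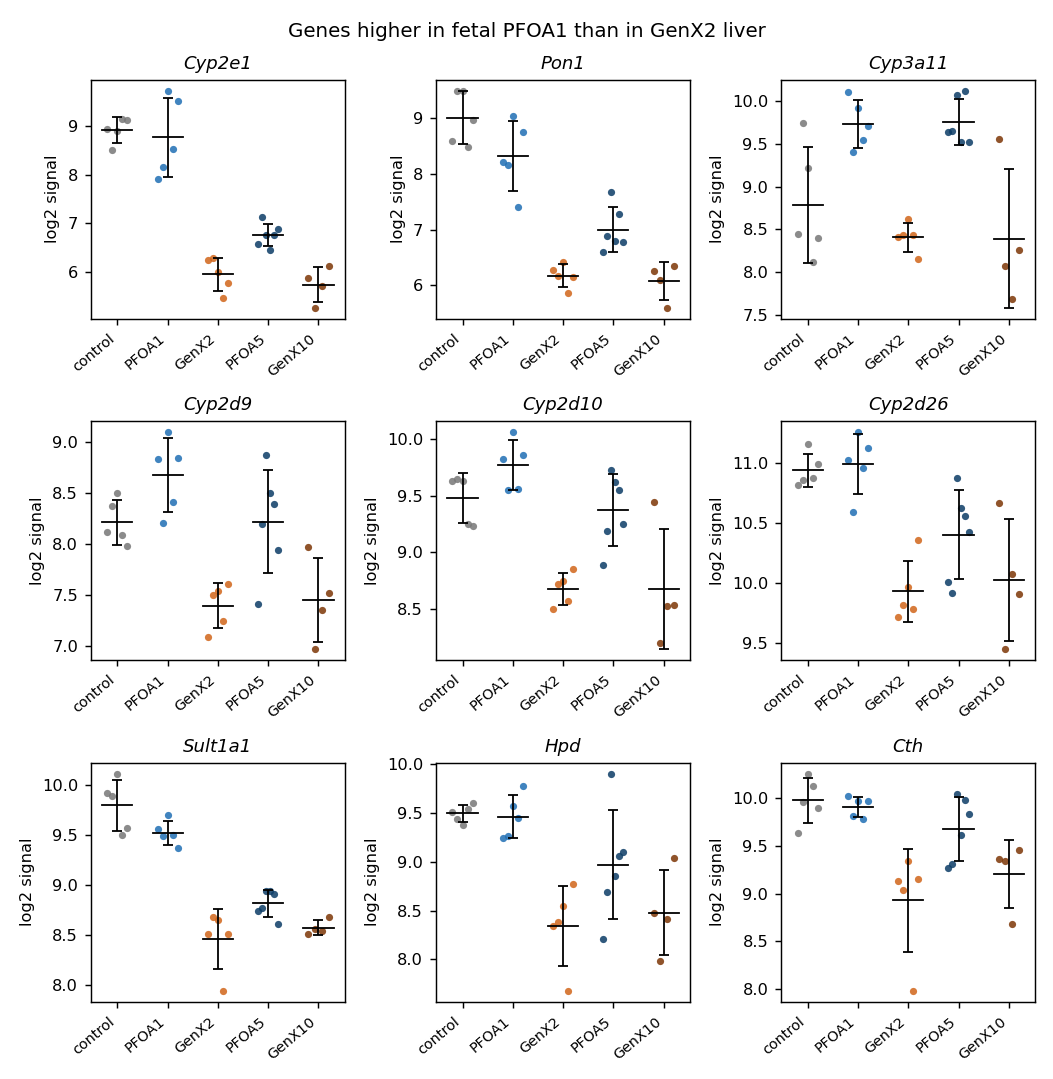
Log2 signals of 9 genes called higher in PFOA1 than in GenX2, by array in the 5 fetal groups; points are arrays, and black lines are group means with SD bars. Cyp2e1 and Pon1 lie below every control array on all GenX2, GenX10 and PFOA5 arrays, and Cyp3a11 is highest in PFOA1 and PFOA5.

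Because it carries the largest difference, the 250 bases before the start of Cyp2e1 (chr7:140763569-140763818, plus strand, RefSeq on GRCm38.p6) are shown, with matches to the motifs searched in capitals.
Cyp2e1: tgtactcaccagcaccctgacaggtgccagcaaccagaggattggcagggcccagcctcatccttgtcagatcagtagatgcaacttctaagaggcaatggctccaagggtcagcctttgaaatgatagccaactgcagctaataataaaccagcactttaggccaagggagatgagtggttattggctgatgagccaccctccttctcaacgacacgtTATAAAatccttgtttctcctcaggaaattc
Its 1 match is TATAAA, from -31 to -26 relative to the start. The motifs were searched on both strands. They were the core site of nuclear receptors, AGGTCA, and its direct repeat with 1 base between, the PPAR type, which contains that core. A site of GATA factors was searched as AGATAA. An E-box was searched as CACGTG. A GC box was searched as GGGCGG. Added after the values were seen were the TATA box, TATAAA, and an HNF1 core. The letters of the HNF1 core were GTTAAT. Of the called genes, 149 had an entry in the promoter table, 72 higher in PFOA1 and 77 higher in GenX2. AGGTCA stood in 23.6% of the former and 9.09% of the latter, against 12.7% of the 18205 tested genes with an entry and 13.8% of all promoters. The GC box stood in 30.6% and 62.3%, against 41.3% and 32.9%. For the GATA site the shares were 16.7% and 10.4% (9.10% of tested genes, 10.3% of all promoters), for the E-box 6.94% and 7.79% (6.67% and 6.05%), for the TATA box 16.7% and 7.79% (12% and 13%) and for the HNF1 core 8.33% and 6.49% (5.96% and 6.52%). The direct repeat stood in none of the 149 windows and in 0.037% of all promoters. These are counts of letters in a short window and show no binding.

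In the list of 21 measured genes of the urea cycle and amino acid catabolism, 3 were called higher in PFOA1 and none in GenX2. Among all genes 0.436% and 0.342% were called in these directions. In this list 20 differences were above 0 (64.4% of all genes were), and the median was 0.32 against 0.05 over all genes. Hpd, which converts a tyrosine breakdown product, read 9.24, 9.26, 9.57, 9.45 and 9.77 in PFOA1 and 8.34, 8.38, 8.55, 7.68 and 8.77 in GenX2. Cth, which makes cysteine from cystathionine, read 10.02, 9.81, 9.97, 9.78 and 9.97 in PFOA1 and 9.13, 9.04, 9.34, 7.98 and 9.15 in GenX2, lowest in GenX2 replicate 4. The groups did not overlap in either gene, and the PFOA1 arrays overlapped those of the control. The differences were 1.11 ± 0.23 for Hpd (adjusted p = 0.018) and 0.98 ± 0.20 for Cth (0.019). The third, the urea cycle enzyme Asl, was smaller, at 0.32 ± 0.07 (0.04), and its call was lost when any 1 of 8 arrays was left out. Cps1, the entry enzyme of the urea cycle, had 0.97 ± 0.33 without passing (0.13), with the wide spread of 11.54 ± 0.34 in PFOA1 and 10.56 ± 1.11 in GenX2. Chosen after their values were seen, the called genes also held Aldh1l1 (0.69 ± 0.12) and Sardh (0.43 ± 0.08) of folate-linked one-carbon metabolism, Aass of lysine breakdown (0.71 ± 0.14), Haao of tryptophan breakdown (0.54 ± 0.13), Dbt (0.39 ± 0.08) and Mccc2 (0.36 ± 0.08) of branched-chain amino acid breakdown, and Qdpr, which recycles tetrahydrobiopterin (0.40 ± 0.10), all higher in PFOA1.

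Sult1a1, a sulfotransferase acting on phenols, read 9.56, 9.49, 9.70, 9.50 and 9.37 in PFOA1, 8.51, 8.68, 8.65, 7.94 and 8.51 in GenX2 and 9.92, 9.89, 10.12, 9.50 and 9.57 in the control. PFOA1 was above GenX2 on every array with a gap wider than its own range, at 1.07 ± 0.12 (adjusted p = 4.2e-05). Papss2, which makes the sulfate donor and was chosen after its value was seen, had 0.61 ± 0.13 (0.028). Of 21 cytosolic sulfotransferases measured, Sult1a1 was the only 1 called (0.436% of all genes were called higher in PFOA1). Of the 21, 19 were below background in both groups.

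In bile acid synthesis and transport, 2 of 25 measured genes were called, both higher in PFOA1 (0.436% of all genes were). Akr1d1 reduces the steroid ring on the way to bile acids; it read 7.70, 7.71, 8.43, 7.35 and 7.71 in PFOA1, of which 1 array was above background, and 6.49, 6.80, 6.83, 5.39 and 6.34 in GenX2, with 1.41 ± 0.23 (adjusted p = 0.0034). Slc27a5, the bile acid-CoA ligase, read 7.34, 7.17, 7.68, 6.97 and 7.18 in PFOA1 and 6.21, 6.63, 6.11, 5.91 and 6.13 in GenX2, with 1.07 ± 0.14 (4.9e-04), although every array of both groups was below background. Cyp7a1, the rate-limiting enzyme of the main bile acid pathway, differed by 1.09 ± 0.31 and did not pass (0.085); it read 7.45, 6.40, 8.0, 7.47 and 6.69 in PFOA1 and 6.36, 5.64, 6.79, 5.60 and 6.18 in GenX2, against 7.92, 8.05, 8.78, 8.04 and 8.03 in the control. The sterol hydroxylase Cyp8b1 had 0.93 ± 0.27 (0.09). The list median was 0.16, and 21 of 25 differences were above 0, beside 64.4% of all genes, with 13 of the 25 genes below background in both groups.

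Secreted plasma proteins made by hepatocytes showed a few calls of the same direction. Of 24 genes of complement and the lectin pathway, 3 were called higher in PFOA1 (0.436% of all genes were). They were the lectin gene Mbl2 (0.86 ± 0.14, adjusted p = 0.0034), the C1r protease gene C1ra (0.54 ± 0.09, 0.0032) and C8g of the membrane attack complex (0.41 ± 0.08, 0.016). C1rb, outside the list, was also called higher in PFOA1 (0.73) and may share signal with C1ra. Mbl2 read 6.96, 6.87, 6.87, 7.20 and 7.02 in PFOA1 and 6.16, 6.21, 6.36, 5.83 and 6.06 in GenX2, below background throughout, against 7.83, 8.17, 7.05, 7.68 and 8.03 in the control, so that both exposures were lower than the control by a 95% interval. Of 22 acute phase genes, Itih4 (0.41 ± 0.08, 0.016) and the dim Saa3 (0.53 ± 0.12, 0.034) were called, both higher in PFOA1 (0.436% of all genes were). Haptoglobin (Hp, 0.95 ± 0.28, 0.094) and hemopexin (Hpx, 0.67 ± 0.17, 0.058) did not pass. No gene of 20 in coagulation and none of 15 apolipoprotein and lipoprotein genes was called, although Apoa4 ranged from 7.87 to 10.80 in PFOA1 and from 7.48 to 10.01 in GenX2. Tff3, a small secreted trefoil peptide, read 7.58, 8.58, 7.73, 7.97 and 7.83 in PFOA1 and 6.83, 6.85, 6.64, 6.47 and 7.11 in GenX2, at 1.16 ± 0.22 (0.011, at least 1.13-fold). The cystine transporter subunit Slc3a1 (1.06 ± 0.21), the glucose-6-phosphate transporter Slc37a4 (0.48 ± 0.09), the phospholipase Gpld1 (1.08 ± 0.24), the iron-responsive aconitase Aco1 (0.34 ± 0.08) and the dim pancreatic elastase gene Cela1 (0.36 ± 0.08) complete the named genes higher in PFOA1. Cela1 was the only 1 called of 15 pancreatic and duodenal markers, 13 of which were below background in both groups.

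Among the genes higher in GenX2, Acss3 showed the largest difference of those above background on several arrays. This mitochondrial enzyme activates propionate; it read 7.06, 6.46, 6.82, 6.67 and 6.93 in PFOA1, 8.30, 8.28, 8.05, 7.56 and 8.36 in GenX2 and 5.36, 5.51, 5.44, 5.43 and 5.45 in the control. The 3 groups did not overlap, with PFOA1 between the others, but every PFOA1 and control array and GenX2 replicate 4 were below background. The difference of PFOA1 from GenX2 was -1.32 ± 0.16 (adjusted p = 1.1e-04), at least 1.27-fold higher in GenX2. Acot2, which cleaves long-chain acyl-CoA in mitochondria and is a PPARα target, read 11.45, 11.16, 11.23, 11.19 and 11.87 in PFOA1 and 12.13, 12.06, 12.12, 12.40 and 12.56 in GenX2, against 8.40, 8.51, 8.53, 8.73 and 8.52 in the control. Here too the 3 groups were apart, at 2.84 above the control in PFOA1, 3.72 above it in GenX2 and -0.88 ± 0.16 between the exposures (0.0088). Its paralogs Acot1 (-0.40 ± 0.14, 0.14) and Acot3 (-0.74 ± 0.18, 0.055) did not pass, and the near-identical sequences of these genes may share signal.

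In the next 3 genes the PFOA1 level also lay between the control and GenX2. Krt18, a keratin of simple epithelia and hepatocytes, read 9.84, 9.56, 9.64, 9.71 and 9.78 in PFOA1, 10.35, 10.18, 10.05, 10.15 and 10.32 in GenX2 and 9.23, 9.30, 9.42, 9.39 and 9.31 in the control. Qpct, an enzyme that closes N-terminal glutamine into a ring, read 8.10, 7.91, 7.93, 7.75 and 7.67, 8.46, 8.48, 8.44, 8.73 and 8.50 and 7.11, 7.31, 7.31, 6.83 and 6.84 in that order of groups. Serinc2, a membrane protein gene, read 8.11, 8.20, 8.55, 8.28 and 8.78, 8.91, 9.10, 9.07, 9.12 and 9.40 and 7.67, 7.64, 7.74, 7.81 and 8.04. In each of these 3 the GenX2 arrays were above all PFOA1 arrays and those above all control arrays. Below background were Qpct on all control arrays and PFOA1 replicate 5, and Serinc2 on all control arrays but replicate 5. The differences between exposures were -0.50 ± 0.09 for Krt18 (adjusted p = 0.0092), -0.65 ± 0.10 for Qpct (0.0025) and -0.74 ± 0.12 for Serinc2 (0.0034). Golm1, a Golgi membrane protein gene, had -0.60 ± 0.11 (0.011). Spon2, a secreted matrix protein gene, had -0.82 ± 0.15 (0.0092), and Mfge8, whose product marks dying cells for uptake, -0.70 ± 0.16 (0.035).

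**Figure D2:**
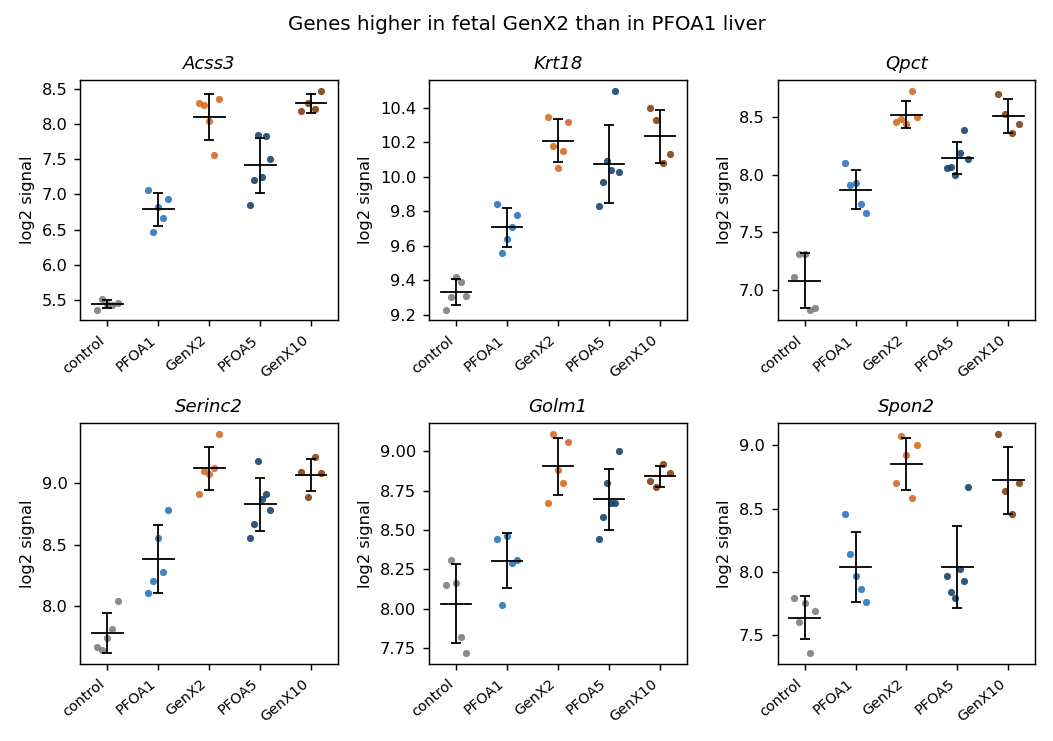
Log2 signals of 6 genes called higher in GenX2 than in PFOA1, by array in the 5 fetal groups; points are arrays, and black lines are group means with SD bars. In Acss3, Krt18, Qpct and Serinc2 the PFOA1 arrays lie between the control and the GenX2 arrays. Acss3 is below background on all PFOA1 and control arrays.

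In other genes higher in GenX2 the PFOA1 arrays overlapped those of the control. Sox11 read 5.88, 5.76, 5.80, 5.81 and 5.77 in PFOA1, 6.93, 6.34, 6.49, 7.0 and 6.66 in GenX2 and 5.85, 5.75, 5.86, 5.86 and 5.91 in the control, all below background. PFOA1 and the control overlapped, and every GenX2 array lay above both, at -0.88 ± 0.13 (adjusted p = 0.0018). AU018091, a protein-coding gene at chr7:3154658-3169203, read 5.86, 5.75, 6.14, 5.79 and 6.27 in PFOA1 and 6.66, 7.51, 7.46, 7.77 and 8.28 in GenX2, of which 1 array was above background, with -1.57 ± 0.29 (0.0096). The growth factor gene Gdf11 (-0.75 ± 0.14, 0.011) was below background in both groups. The ubiquitin ligase scaffold Cul4b (-0.80 ± 0.17, 0.023), the arginyltransferase Ate1 (-0.74 ± 0.15, 0.021), the actin regulator Cyfip2 (-0.78 ± 0.15, 0.015) and the imprinted zinc finger gene Zim1 (-0.68 ± 0.13, 0.011) were above background on the GenX2 arrays. Peg3, the imprinted neighbour of Zim1, had -0.28 ± 0.11 and did not pass (0.17).

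The genes best known to answer PPARα were high in both exposures, and few of them passed the test between the exposures. Ehhadh, the bifunctional enzyme of peroxisomal fatty acid oxidation, read 12.45, 12, 12.49, 12.33 and 12.46 in PFOA1 and 12.54, 12.50, 12.60, 12.49 and 12.65 in GenX2, against 8.59, 9.07, 9.37, 9.47 and 8.72 in the control. Cyp4a14, which hydroxylates fatty acids, read 12.47, 12.10, 12.55, 12.44 and 12.55 in PFOA1 and 12.54, 12.52, 12.66, 12.37 and 12.69 in GenX2, against 5.76, 6.95, 7.13, 9.19 and 7.39. The exposed groups overlapped in both genes and lay far above the control. The 95% interval of the difference was -0.47 to 0.05 for Ehhadh and -0.81 to 0.54 for Cyp4a14 (adjusted p = 0.31 and 0.81). The peroxisomal thiolase Acaa1b had -0.32 ± 0.18 (-0.68 to 0.05, 0.28), and the fatty acid binding protein Fabp1 -0.33 ± 0.15 (-0.63 to -0.03, 0.19).

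Of 25 genes of peroxisomal fatty acid oxidation none was called, with a median of -0.17 and 15 of 25 differences below 0, beside 70.1% of the genes above background; the 95% interval lay below 0 in 6 of the 25. Of 20 genes of mitochondrial fatty acid oxidation, 2 were called higher in GenX2 (0.342% of all genes were), Acot2 and the carnitine palmitoyltransferase Cpt2. The median was -0.23, and 16 of 20 differences were below 0. In 11 of these 20 the interval lay below 0, beside 7.29% of all genes and 21.7% of those above background. In 5 of the 20 the groups did not overlap, beside 3.74% of all genes and 4.77% of those above background. Cpt2 read 9.82, 9.61, 9.82, 9.68 and 9.97 in PFOA1 and 10.14, 10.11, 10.11, 10.18 and 10.40 in GenX2 without overlap (-0.41 ± 0.10, adjusted p = 0.042). None of 10 genes of microsomal omega oxidation was called (median -0.03). Of 30 PPAR-responsive genes of lipid handling 1 was called, Angptl4, which inhibits lipoprotein lipase, with a median of -0.03 and an interval below 0 in 10 of the 30. It read 8.32, 8.36, 8.37, 8.19 and 8.50 in PFOA1 and 8.93, 9.14, 8.78, 8.94 and 9.38 in GenX2 (-0.68 ± 0.17, 0.049), and its call was lost when any 1 of 8 arrays was left out. The lipid droplet coat gene Plin2 (-0.53 ± 0.13, 0.052), the pantetheinase Vnn1 (-0.71 ± 0.23, 0.12) and the kinase Pdk4, which restrains glucose oxidation (-0.42 ± 0.16, 0.15), did not pass although their groups did not overlap. For comparison, genes above background on at least 3 arrays of either group had a median difference of -0.09.

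**Figure D3:**
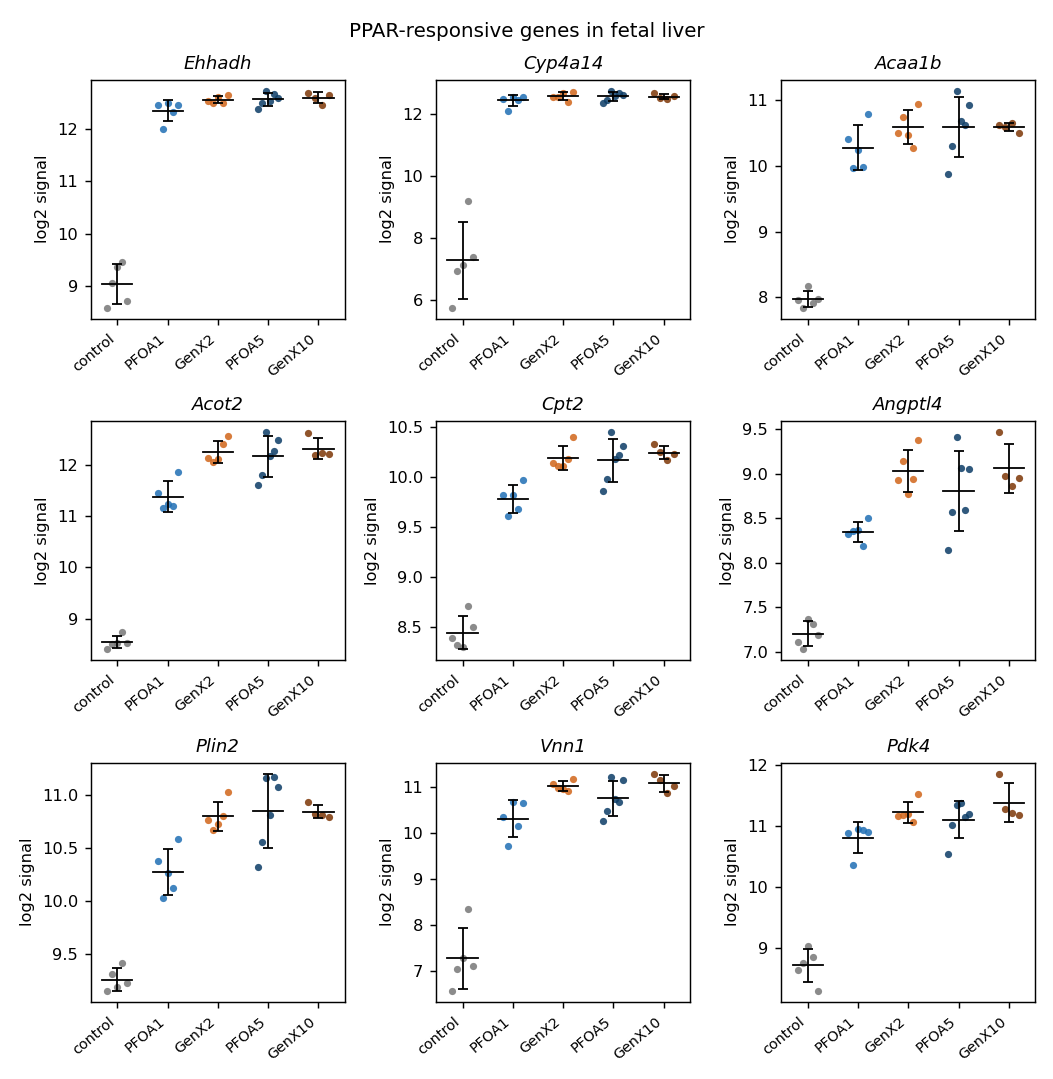
Log2 signals of 9 PPAR-responsive genes by array in the 5 fetal groups; points are arrays, and black lines are group means with SD bars. All exposed groups lie above the control means, and of the 9 genes Acot2, Cpt2 and Angptl4 were called between PFOA1 and GenX2.

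In lists of proliferation and of blood formation most differences were below 0, as were 70.1% of all genes above background, and 1 gene was called. The interval of the difference lay below 0 in 9 of 12 haem genes (75%) and 12 of 25 cell cycle genes (48%). It lay there in 9 of 31 erythroid markers (29%) and in 21.7% of all genes above background. In the haem, cell cycle and erythroid lists no gene had groups without overlap, beside 4.77% of all genes above background. In the cell cycle list 23 of 25 differences were below 0 (median -0.32, 0 called; Cdc20 -0.42 ± 0.12, adjusted p = 0.086). All 12 genes of haem synthesis had differences below 0 (median -0.26), and 1 was called, the protoporphyrinogen oxidase gene Ppox, at -0.57 ± 0.13 (0.042). It read 9.27, 9.14, 9.09, 8.96 and 8.74 in PFOA1 and 9.65, 9.55, 9.19, 10.15 and 9.51 in GenX2, and the ranges of the groups overlapped. Of 31 erythroid markers, 28 had differences below 0 (median -0.20, 0 called), and the mean level of the list ranged from 8.48 to 9.18 in PFOA1, 8.87 to 9.38 in GenX2 and 8.77 to 9.20 in the control. Of these markers 21 were above background on all 10 arrays, and 3 on none of them. More erythroid cells and more RNA per cell cannot be told apart in whole liver. With the erythroid level of each array as a covariate 147 genes were called, 60 higher in PFOA1 and 87 higher in GenX2, of which 106 were among the 239. Of the 41 named genes called, 28 remained, among them Cyp2e1, Pon1, Sult1a1, Acss3, Acot2, Hpd, Cyp2d9, Cyp2d10 and Cyp2d26. The other 13 did not: Aco1, Asl, Ate1, C8g, Cela1, Cth, Cul4b, Gpld1, Mfge8, Ppox, Saa3, Slc37a4 and Slc3a1. Macrophage, endothelial, stellate, granulocyte, megakaryocyte, lymphoid and stem cell lists had no called gene and medians from -0.11 to 0.09. Of 17 markers of mature hepatocytes, Cyp2e1 was the only 1 called (median 0.09), beside 0.436% of all genes called higher in PFOA1. Of 11 fetal hepatocyte markers none was called (median -0.07).

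**Figure D4:**
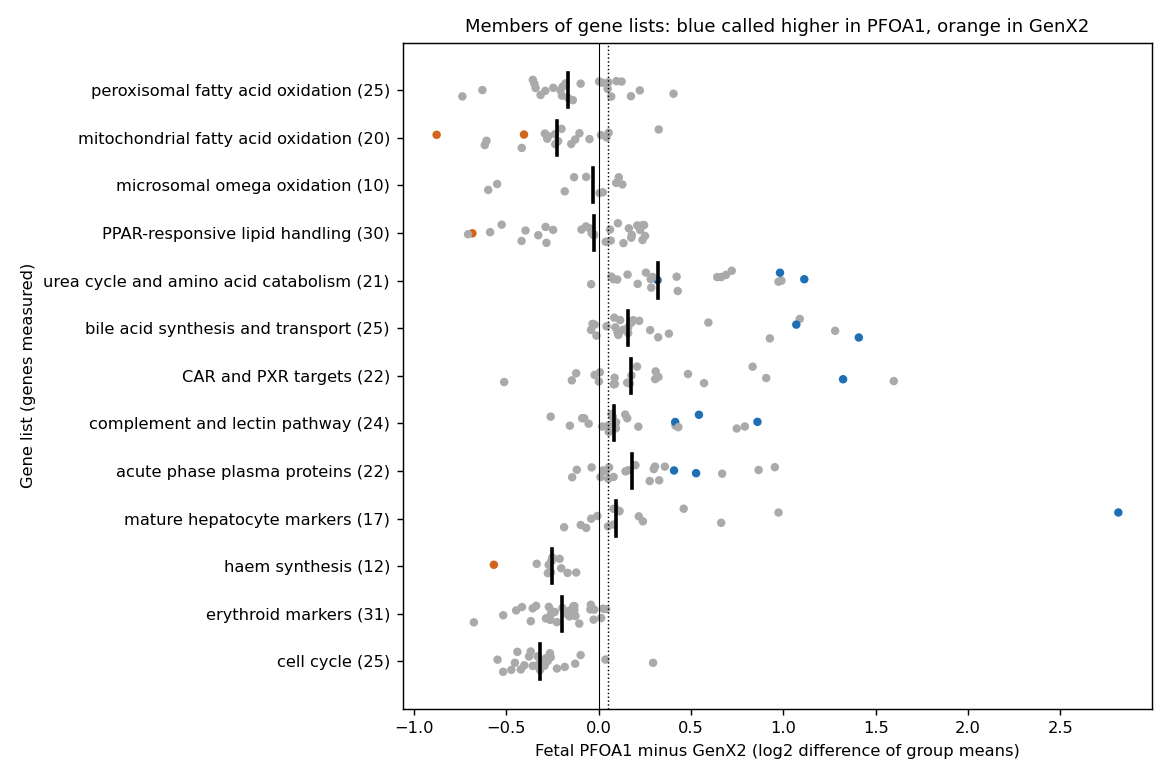
Log2 difference of PFOA1 minus GenX2 for each member of 13 gene lists; points are genes, blue if called higher in PFOA1, orange if called higher in GenX2 and grey if not called, short bars are list medians and the dotted line is the median of all genes (0.05). Urea cycle and amino acid genes lie mostly to the right of 0 and cell cycle, haem and erythroid genes to the left.

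Of the genes higher in PFOA1, 24 were copies of the 5S ribosomal RNA gene. All 69 copies measured had differences above 0, with a median of 0.70, and 24 were called. They are near-identical sequences that share signal and are best read as 1 measurement rather than 24. Of all called genes, 73 of the 134 genes higher in PFOA1 and 36 of the 105 higher in GenX2 were below background on every array of both groups, as were 23726 of the 30746 genes tested, and a difference between such signals gives no fold change in RNA.

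Most called genes had the same direction in other fetuses at the higher doses, whose arrays are by title separate from those of PFOA1 and GenX2. The source name of GenX2 replicate 5 gives GenX10, and the counts that follow include this array. The difference of PFOA5 minus GenX10 had the same sign in 124 of the 134 genes higher in PFOA1 (92.5%) and in 103 of the 105 higher in GenX2 (98.1%), against 78.0% of all genes. Without the 24 copies of 5S ribosomal RNA it was 100 of 110 (90.9%). Its 95% interval lay on the same side of 0 in 75 (56.0%) and 72 (68.6%), against 11.7% of all genes (51 of 110, 46.4%, without the 5S copies), and on the opposite side in none of the 239. Without PFOA5 replicate 6, whose source name disagrees, 122 and 104 had the same sign, against 76.0% of all genes. Cyp3a11 differed at the higher doses by 1.36 (0.78 to 1.95), beside 1.32 at the lower ones. Cyp2e1 differed by 1.02 (0.47 to 1.57) and Pon1 by 0.92 (0.39 to 1.46), beside 2.81 and 2.15 at the lower doses, but both genes were below background on every PFOA5 and GenX10 array. Cyp2e1 read 6.76 ± 0.23 in PFOA5 and 5.74 ± 0.36 in GenX10, and Pon1 7.0 ± 0.40 and 6.07 ± 0.34, so that at the higher dose of PFOA both genes were below every control array too. Acot2 differed by -0.16 (-0.49 to 0.18), and Acss3 by -0.88 (-1.21 to -0.54). The test of whether the difference between compounds changed from the lower to the higher doses called 0 of 30746 genes (0%) in limma, with a smallest adjusted p of 0.186 and 757 genes at an unadjusted p under 0.05. Neither Cyp2e1 nor Pon1 was thus called for a change with dose. With all 50 arrays, array weights, the erythroid covariate or without PFOA5 replicate 1 this test called 1 to 5 genes.

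The same doses were also compared in maternal liver. The adult level of Cyp2e1 was 12.20 ± 0.16 in maternal PFOA1 and 12.33 ± 0.21 in maternal GenX2, with a difference of -0.13 (-0.55 to 0.29). For Pon1 the maternal difference was 0.04 (-0.37 to 0.44). The fetal minus the maternal difference was 2.95 ± 0.30 for Cyp2e1 (adjusted p = 2.5e-08) and 2.11 ± 0.28 for Pon1 (3.7e-05). Over all genes this contrast called 51 (0.166%), 31 with a larger value in the fetus (0.101%) and 20 with a smaller one (0.065%). Akr1d1 (1.35 ± 0.27, 0.016), Hpd (1.30 ± 0.25, 0.012), Slc27a5 (1.23 ± 0.21, 0.0024), Cyp2d10 (1.04 ± 0.19, 0.0066) and Aco1 (0.71 ± 0.13, 0.0095) were among the former, and Sox11 (-0.89 ± 0.15, 0.0014), AU018091 (-1.57 ± 0.31, 0.012) and Gdf11 (-0.84 ± 0.16, 0.012) among the latter. The maternal difference had the same sign in 106 of the 134 genes higher in PFOA1 (79.1%, or 83 of 110 without the 5S copies) and in 82 of the 105 higher in GenX2 (78.1%), against 69.4% of all genes. Tff3 was also higher with PFOA in maternal liver, by 1.37 (0.95 to 1.79), and Acot2 was also higher with GenX there, at -1.32 (-1.79 to -0.86). In the controls, 39 of the 134 genes higher in PFOA1 (29.1%) were at least 1 higher on the log2 scale in maternal than in fetal liver, against 2.47% of all genes. Maternal and fetal arrays were treated as independent, since their pairs are not named.

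**Figure D5:**
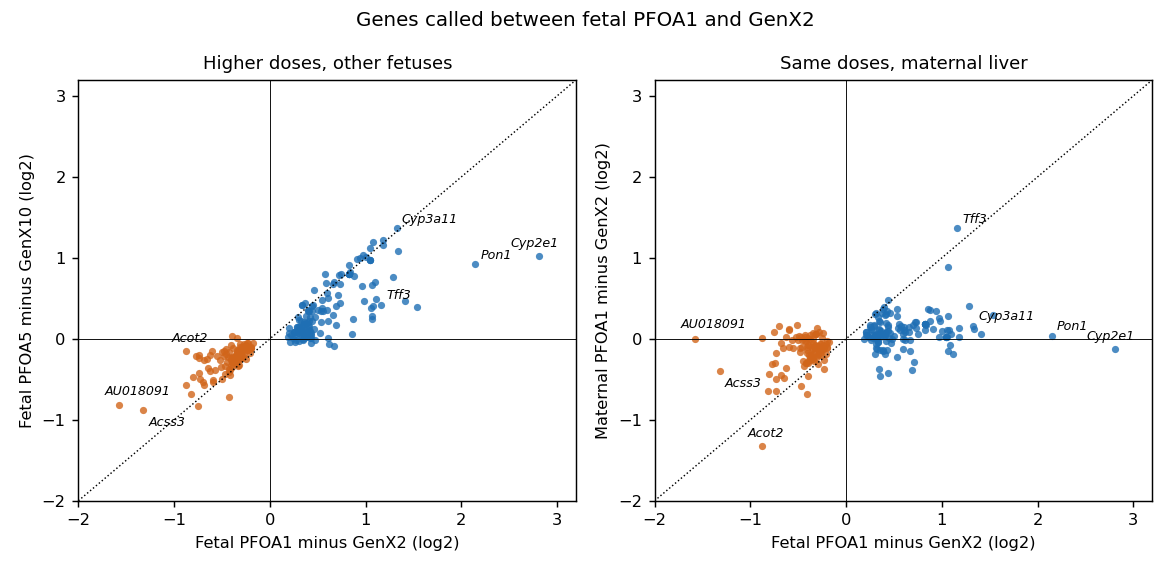
Log2 differences of the 239 called genes, blue higher in PFOA1 and orange higher in GenX2; the horizontal axis is fetal PFOA1 minus GenX2, and the vertical axis is fetal PFOA5 minus GenX10 on the left and maternal PFOA1 minus GenX2 on the right, with dotted lines of equality. Of the 134 and 105 genes, 124 and 103 keep their sign at the higher fetal doses and 106 and 82 in maternal liver, where Cyp2e1 and Pon1 lie near 0.

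The number of called genes depended on single arrays. It was 166 without GenX2 replicate 5, whose source name disagrees, of which 141 were among the 239, and 131 without this array and PFOA5 replicate 6. It was 1194 without PFOA1 replicate 1, 135 without PFOA1 replicate 2, 78 without PFOA1 replicate 3, 153 without PFOA1 replicate 4, 121 without PFOA1 replicate 5 and 90 without GenX2 replicate 4. Of the 41 named genes called, 35 stayed called without GenX2 replicate 5; Aco1, Angptl4, Cpt2, Cyp3a11, Mfge8 and Ppox did not. Without PFOA1 replicate 3, 22 stayed, and without GenX2 replicate 4, 25. Cyp2e1 and Pon1 passed in each of 40 alternative settings, with differences of 2.57 to 3.03 and 1.97 to 2.37 when 1 array of either group was left out. Akr1d1, Cyp2d9, Cyp2d10, Cyp2d26, Slc27a5, Sult1a1, Tff3, Mbl2 and C1ra on the PFOA1 side and Acss3, Acot2, AU018091, Sox11, Spon2, Serinc2, Qpct, Golm1, Krt18, Gdf11 and Zim1 on the GenX2 side passed without each of these 10 arrays in turn. Hpd and Slc3a1 lost their call without PFOA1 replicate 3 and without GenX2 replicate 4, and Hpd also without PFOA1 replicate 5. Cth, Cyfip2 and Itih4 lost it without PFOA1 replicate 3. Ppox lost it in 8 of the 10 fits with 1 array left out, Saa3 in 7, Aco1, Cela1, Cpt2 and Mfge8 in 6 each, Gpld1 in 5, Ate1 and Cul4b in 4 each, and C8g and Slc37a4 in 2 each. With only PFOA1 and GenX2 in the fit 23 of the 41 stayed called, and Akr1d1, Cth, Gdf11, Itih4 and Zim1 were among the 18 that did not. With source names followed 22 stayed, and Hpd, Cth, Cyp3a11, Itih4, Gdf11 and Zim1 were among the 19 that did not.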

How the data were processed

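Total RNA of fetal and maternal livers was hybridised to Affymetrix whole-transcript arrays, per the labels' protocols. RMA gave the log2 signals that the authors deposited, per the submitters' processing notes, which name the build mm10; versions, and whether all 50 arrays were normalised together, are not given in the sources used here. RMA normalises by quantiles, so a shift of most genes would be partly removed. Precision is limited by how many arrays there are.

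The annotation covers 32750 probes. A single symbol stood on 30604 and synonyms of 1 gene on 615, while 1531 naming several genes were dropped; 33206 transcript clusters are unnamed here. The brightest probe stood for each of 364 genes with several, which gave 30746 genes. In R 4.3.3, lmFit and eBayes of limma 3.58.1 fitted 25 fetal arrays in 5 groups, and 50 arrays in 10 groups for the maternal comparison; calls needed p under 0.05, two-sided, after Benjamini-Hochberg adjustment over all genes. Differences from control, at higher doses and in maternal liver are given with 95% intervals. A fold written "at least" sets the dimmer group at the negative control percentile. Python 3.11.15 (numpy 2.4.6, pandas 2.3.3) and the R package data.table, version 1.17.8, handled files, sequences were aligned with Biopython 1.88 and figures drawn with matplotlib 3.10.9. The procedure was tested on simulated data.

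Named genes were, first, up to 12 with the largest called difference in each direction, without predicted genes and small RNAs. These had to be above background on 3 or more arrays of the brighter group. Every array of each group also had to lie on the same side of the other group's mean. Separation of the groups in these genes thus follows in part from the rule. Added were up to 3 called members of each of 43 lists or the member with the smallest p, and 36 anchor genes (27 measured). For the contrasts with dose and tissue, up to 5 of each sign were added. Other genes named were chosen after their values were seen. The members and lists were chosen with earlier results of these data known. The alternatives are given in the closing section. As far as the labels say, replicates were fetuses of separate litters.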

Additional observations from a re-analysis of the deposited data

Results flagged for a closer look

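Single arrays far from the other 4 of their group were found in 20 of 196 tests of named genes in PFOA1 and GenX2, where chance gives about 1 in 20. Of these, 8 fell on GenX2 replicate 4. It was low in Cth (7.98, others 9.04 to 9.34), Itih4 (10.55, others 10.97 to 11.01), Sult1a1 (7.94, others 8.51 to 8.68), Onecut2 (7.29, others 7.93 to 8.12) and Tef (6.02, others 6.24 to 6.32), and high in Cul4b (8.92, others 8.25 to 8.43), Qpct (8.73, others 8.44 to 8.50) and the erythroid factor Klf1 (9.35, others 8.36 to 8.57). GenX2 replicate 5, the array whose source name disagrees, was high in 5 genes: Acot1 (11.21, others 10.71 to 10.83), Cpt2 (10.40, others 10.11 to 10.18), Mfge8 (10.00, others 9.24 to 9.46), Slc37a4 (9.01, others 8.54 to 8.67) and Apoa4 (10.01, others 7.48 to 7.73).

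PFOA1 replicate 5 was high in Fgf21 (6.86, others 5.72 to 5.80) and Pex11a (8.77, others 7.66 to 7.92) and low in Afp (12.86, others 12.96 to 13). PFOA1 replicate 2 was low in the PPARα targets Cyp4a14 (12.10, others 12.44 to 12.55) and Pdk4 (10.35, others 10.89 to 10.95). PFOA1 replicate 1 was low in Asl (8.20, others 8.32 to 8.35), and PFOA1 replicate 3 high in C1qa (7.47, others 7.23 to 7.29).

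The difference between compounds differed between fetal and maternal liver by test in 10 genes named for this contrast. The fetal minus maternal values were 2.95 for Cyp2e1, 2.11 for Pon1, 1.62 for Il1rn, 1.61 for Fabp3 and 1.35 for Akr1d1, and -1.57 for AU018091, -0.89 for Sox11, -0.85 for Cdc20, -0.84 for Gdf11 and -0.75 for Ckap2l. For Il1rn, which blocks interleukin-1, and Fabp3, a fatty acid binding protein, the value came from maternal liver, where PFOA1 minus GenX2 was -1.23 (-1.73 to -0.73) and -1.45 (-1.96 to -0.93), against 0.39 and 0.16 in the fetus.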

How the results depend on the processing

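The 239 calls (134 higher in PFOA1, 105 in GenX2) became 67 with only the 2 groups in the fit, 433 with all 50 arrays, 418 with arrays centred on their median (99 and 319, a shift of all genes' median from 0.05 to -0.02), 916 with array weights (596 and 320), 2 with a minimum of 1.5-fold (Cyp2e1 and Pon1), 131 without the 2 arrays of unclear label, 68 with source names followed and 147 with the erythroid covariate. With dim genes left out they were 301 (150 and 151). With 1 array left out, controls and higher doses included, they ranged from 78 to 1194. Other settings stayed within 1.5 times of 239: an intensity trend (209), robust moderation (233), repeated quantile normalisation (226), averaged probes (245) and no arrays against the label female (277). The dose contrast called 0, but 2 with all 50 arrays, 5 with array weights, 1 with the erythroid covariate and 1 without PFOA5 replicate 1. The tissue contrast called 51, but 15 with only the groups compared, 78 without dim genes, 98 with array weights, 2 with the 1.5-fold minimum and 22 with source names followed; with 1 array left out it ranged from 26 (without PFOA1 replicate 3 or 5) to 89 (without maternal GenX2 replicate 4). No named gene reversed in direction once called. In a check for pairs, the correlations of same-numbered PFOA1 and GenX2 arrays were 0.185, 0.238, 0.108, 0.059 and 0.567 for replicates 1 to 5. They were not taken on the log2 signals as they stand, whose correlations among fetal arrays lay between 0.9773 and 0.9967. In the same check the highest correlation with an array of another number was 0.52, 0.022, 0.102, 0.142 and 0.216. The same-numbered value was thus the higher in replicates 2, 3 and 5. Numbers were not taken as pairs because the labels do not say that they pair fetuses. With the replicate block 229 genes were called, and of the 41 named genes called Aco1, Angptl4 and Saa3 were not. Leave-out fits of other groups' arrays were added after the data were seen. Genes below background have compressed differences.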

Other observations

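Beyond the gene lists, and chosen after their values were seen, called genes higher in PFOA1 (0.436% of all genes) included 2 of 8 carboxylesterases of family 1. These were Ces1c (0.87 ± 0.15) and Ces1b (0.53 ± 0.09), both below background. Ces1d and Ces1g, at 9.68 ± 0.34 and 8.35 ± 0.39 in PFOA1, were high in both exposures and differed by -0.01 ± 0.19 and -0.09 ± 0.25. The aldehyde oxidase gene Aox3 (1.53 ± 0.28) and the hydroxysteroid dehydrogenase gene Akr1c14 (1.34 ± 0.23) were among the largest differences, with 1 array of Aox3 and none of Akr1c14 above background. The vitamin E carrier gene Ttpa (0.62 ± 0.12) was below background as well. Il6ra, the interleukin-6 receptor of hepatocytes, had 0.46 ± 0.10.

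Called genes higher in GenX2 also included, at small differences, Cdk4 of the cell cycle (-0.33 ± 0.06), Nras (-0.30 ± 0.07), Prmt5 (-0.31 ± 0.07), Smarca4 (-0.20 ± 0.05) and Nono (-0.35 ± 0.06), each above background on all 10 arrays. Lpcat3, which remodels phospholipids (-0.39 ± 0.09), Dhrs4, a retinal reductase (-0.42 ± 0.10), and Tgm2, a transglutaminase (-0.45 ± 0.10), were bright and above the control in both exposures.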
